A study of Rattus norvegicus with 8 samples.

Results

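The integrated stress response and the unfolded protein response were followed through 32 genes in cultured rat aortic smooth muscle cells. They were picked by gene name from these pathways, with earlier results of these data known. They comprise 16 genes of the Atf4 branch and 4 genes coding for stress sensors and Xbp1. The others are 9 chaperones and folding factors of the endoplasmic reticulum (ER) and 3 genes of ER-associated degradation. The array annotation held 31 of the 32, Ern1 being the one it did not list, and all 31 were bright enough to be tested among 11377 genes. The cells came from the thoracic aorta of Sprague-Dawley rats, all male, and were grown with 10% serum for 2 passages. They were transfected for 48 h with a non-targeting control siRNA (siNTC) or with an siRNA against Giver, a long non-coding RNA (siGiver). They then received for 3 h either 100 nM angiotensin II (Ang II), a vasoconstrictor peptide hormone, or the same volume of phosphate-buffered saline (PBS). Each of the 4 combinations has 2 arrays, and all groups share the transfection and the serum. No probe set carries the name Giver, so the knockdown was not checked here, and the labels do not say how many siRNA sequences were used.

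The integrated stress response starts when kinases phosphorylate the translation factor eIF2alpha. General protein synthesis then falls, while the transcription factor Atf4 is made from a specially regulated messenger RNA and turns on genes for amino acid supply, redox balance and cell death. The kinase Perk, product of Eif2ak3, links this route to misfolded protein in the ER. The other ER sensors are Ire1, product of Ern1, which splices Xbp1 messenger RNA, and Atf6, which is cut in the Golgi. Active Xbp1 and Atf6 raise chaperones and degradation factors. Arrays of this kind measure total messenger RNA and do not show Atf4 translation, Xbp1 splicing or eIF2alpha phosphorylation.

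Sequences of the promoters are shown because known target genes of the branches carry short elements there. RefSeq promoter windows on the GRCr8 build were found for 27 of the 32 genes, each 300 bases long with 250 before the gene's start, and not for Atf6, Ern1, Pdia3, Pdia6 and Manf. Both strands were searched for 3 motifs, and no match overlapped another. The first was the C/EBP-ATF response element TGATGNAAN, bound by Atf4 with a partner. The second was the ER stress response element, bound by Atf6 and Xbp1 with NF-Y. The third was the unfolded protein response element TGACGTGG. Each stretch below has up to 30 bases on either side of the match, reads 5′ to 3′ on the gene's strand, and has the match in capitals.
Chac1: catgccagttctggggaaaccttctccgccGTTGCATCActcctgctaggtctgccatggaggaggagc
Trib3: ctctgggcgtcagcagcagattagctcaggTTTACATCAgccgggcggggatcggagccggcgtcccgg
Herpud1: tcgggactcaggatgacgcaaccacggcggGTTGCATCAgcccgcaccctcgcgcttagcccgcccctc
Creld2: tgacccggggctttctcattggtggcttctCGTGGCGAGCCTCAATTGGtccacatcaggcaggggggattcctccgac
Canx: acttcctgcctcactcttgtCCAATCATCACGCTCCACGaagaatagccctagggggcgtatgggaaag
Calr: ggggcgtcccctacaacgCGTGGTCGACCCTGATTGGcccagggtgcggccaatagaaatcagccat
Xbp1: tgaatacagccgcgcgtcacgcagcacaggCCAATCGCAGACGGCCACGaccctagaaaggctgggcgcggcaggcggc
Hyou1: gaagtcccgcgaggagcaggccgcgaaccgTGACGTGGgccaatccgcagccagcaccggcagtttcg
The stretches lie at chr3:126795933-126796001 (Chac1, plus strand), chr3:161275517-161275585 (Trib3, minus strand) and chr19:10614854-10614922 (Herpud1, minus strand). Those of the chaperone genes lie at chr7:121789209-121789287 (Creld2, plus), chr10:35158039-35158107 (Canx, minus), chr19:40213117-40213183 (Calr, plus) and chr8:53602661-53602728 (Hyou1, plus). That of Xbp1 lies at chr14:84604528-84604606 on the plus strand.

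The C/EBP-ATF element was found in the windows of Chac1, Trib3 and Herpud1, that is 3 of 29 windows (10.3%), against 3.97% of all 33469 promoter windows. In Chac1 the match begins 168 bases before the start, in Herpud1 185, and in Trib3 22. The ER stress element was in 4 of the 29 windows (13.8%), those of Creld2, Canx, Calr and Xbp1, against 0.0657% of all windows. The unfolded protein response element was in 1 of 2 windows of Hyou1 (3.45% of the 29) against 0.595% of all. The C/EBP-ATF element was in 2 of the 17 windows of the Atf4 branch (11.8%), and the ER stress element in 3 of 7 windows of chaperones (42.9%). None of the 17 held the ER stress element and none of the 7 the C/EBP-ATF element. At the shares over all windows, so few windows would mostly hold no match, so these absences do not set the groups apart. A match is only a run of letters in this window.

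The 8 arrays had medians of 6.15 to 6.19 on the log2 scale. The 8 smooth muscle markers checked, including Acta2, Myh11 and Myocd, lay above the filter value of 4.81 on every array, while none of the 5 listed endothelial markers did. Of 6 leukocyte markers, Ptprc, Csf1r and Adgre1 lay below it on every array and Cd68 on 1, and Cd14 and Aif1 above it on all. All 6 fibroblast markers lay above it on every array. The summed log2 level of the smooth muscle markers was 79.6 to 79.9 in siNTC PBS arrays, 79.3 on both siNTC Ang II arrays, 81.8 to 81.9 in siGiver PBS arrays and 82.5 to 82.7 in siGiver Ang II arrays. For fibroblast markers the sums were 46.4 to 47.1, 45.1 to 45.2, 47.1 to 47.2 and 46.1 to 46.4 in the same order, and for leukocyte markers 28.8 to 29.4, 29.5 to 29.9, 29.1 to 29.7 and 28.3 to 29.0. 5S ribosomal RNA, read by a control probe set, stood at 8.20 ± 0.067 (SD, n = 2), 8.90 ± 0.032, 7.63 ± 0.010 and 7.74 ± 0.037 in that order, so it moved with both factors. The difference between 3′ and 5′ probe sets, a sign of RNA integrity, ran from -0.16 to -0.055 for Gapdh and from 0.23 to 0.30 for beta-actin. For hexokinase it ran more widely, from 0.19 to 0.73, with the highest value on siGiver Ang II replicate 2. The part of these in the results below was not tested. In bulk cultures fewer cells of a type and less RNA per cell cannot be told apart.

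Of the 31 genes, 14 and 18 were called for the siRNA, in PBS and with Ang II, and 8 in each arm for Ang II. Over all genes the siRNA also had more calls than Ang II, with 3986 and 5037 called for the siRNA and 698 and 1852 for Ang II in siNTC and siGiver cells. For Ang II 25.81% of the 31 genes were called in each arm, against 6.14% and 16.3% over all genes. A gene counts as changed at an adjusted p under 0.05 in limma's moderated test over all 11377 genes. By that rule 23 of the 31 changed in at least 1 of 5 comparisons, and Asns, Shmt2, Herpud1, Pdia3, Pdia4, Pdia6, Calr and Sdf2l1 in none. Over all genes tested 56.1% changed in at least 1. The widest span of group means was that of Vldlr, 1.87-fold, and the narrowest that of Pdia6, 1.03-fold.

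**Figure D1:**
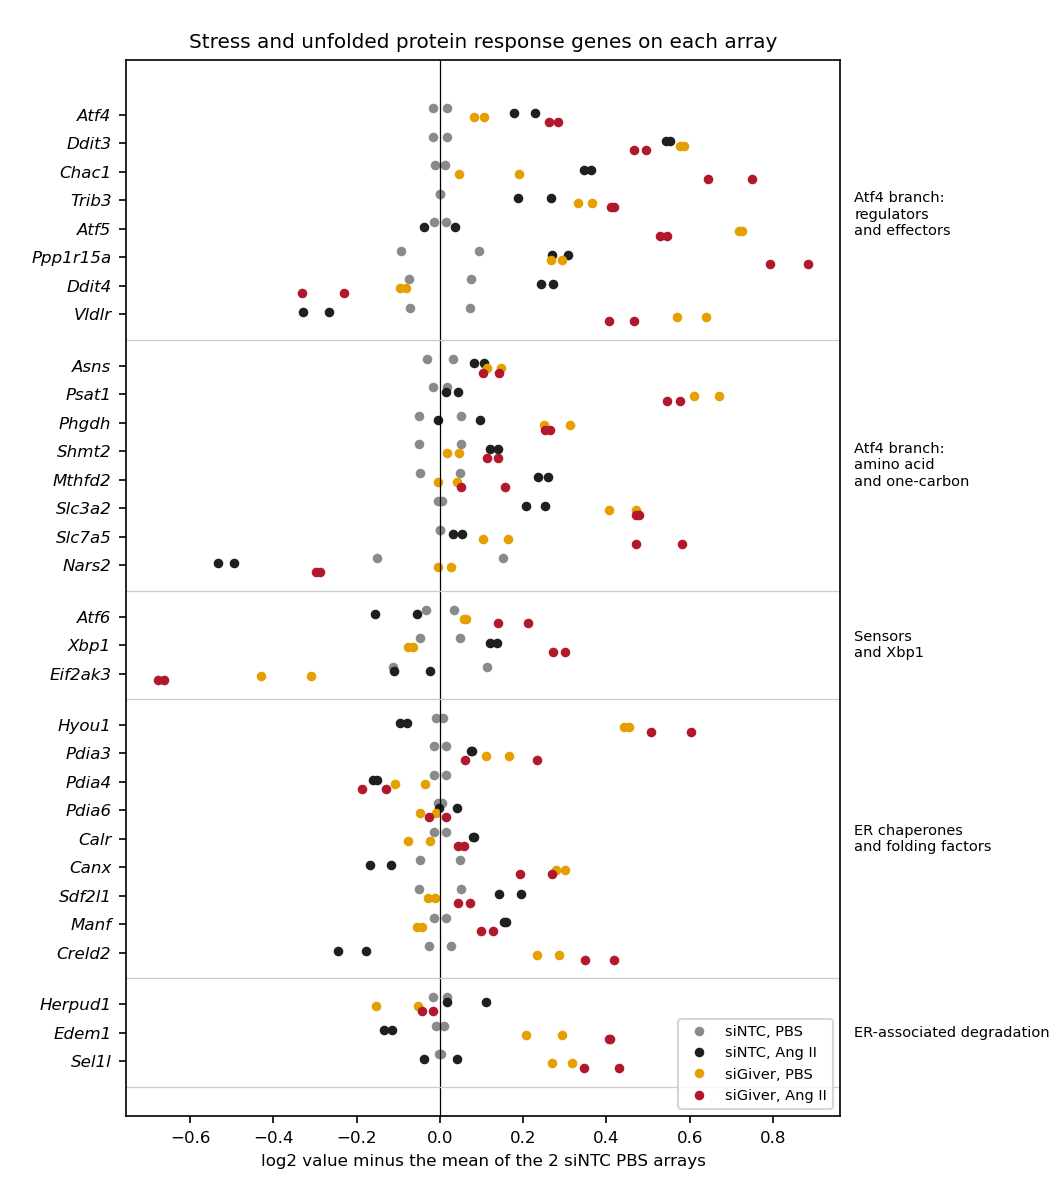
Value of each of the 31 genes on each of the 8 arrays, as the log2 value minus the mean of the 2 siNTC PBS arrays (horizontal axis, log2), with genes in rows by role and groups by colour. Atf5, Psat1, Vldlr and Hyou1 are among the genes with both siGiver groups to the right of both siNTC groups, and Eif2ak3 is among those with both to the left.

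Without Ang II, regulators and effectors of the Atf4 branch were mostly higher in siGiver than in siNTC cells. Of these 8 genes, 5 were higher and none lower, with a median difference of 0.31 log2, against a median of -0.0047 over all genes. In this comparison 35.0% of all genes tested were called, 1817 genes higher and 2169 (19.1%) lower.

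Atf5, a leucine zipper factor of the Atf4 route that acts on mitochondrial stress genes, read 10.23 and 10.21 on the siNTC PBS arrays and 10.94 and 10.95 on the siGiver PBS arrays. The difference was 0.72 ± 0.046 log2 (SE, 2 arrays per group), or 1.65-fold, with adjusted p = 5.72e-05. Genes with printed array values were chosen among called genes with non-overlapping arrays, so that separation adds no support. Vldlr, a lipoprotein receptor known as an Atf4-dependent gene under ER stress, read 11.86 and 11.71 in siNTC and 12.36 and 12.43 in siGiver cells. It was higher by 0.60 ± 0.062 (1.52-fold, adjusted p = 0.000344), and the 3 other Vldlr probe sets gave 0.56 to 0.72.

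Ddit3, which codes for the pro-apoptotic factor Chop, read 9.60 and 9.63 in siNTC and 10.20 and 10.19 in siGiver cells. Its difference was 0.58 ± 0.042 (adjusted p = 9.07e-05). Trib3, a pseudokinase that restrains Atf4 and Akt signalling, was higher by 0.35 ± 0.046 (adjusted p = 0.00103), and its 2 dimmer probe sets gave 0.21 and 0.33. Ppp1r15a, whose product Gadd34 removes the phosphate from eIF2alpha, read 8.39 and 8.58 against 8.78 and 8.75. This gap, 0.28 ± 0.068 (adjusted p = 0.0155), is only a little wider than the spread between the siNTC arrays. The Ppp1r15a call was lost without siNTC PBS replicate 1 or either siGiver PBS array, where the difference was 0.19 to 0.29 with adjusted p of 0.0509 to 0.0725.

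Atf4 itself did not pass, at 0.09 ± 0.044 (95% interval -0.01 to 0.20), nor did Chac1, an enzyme that breaks down glutathione, at 0.12 ± 0.061 (-0.03 to 0.26). Ddit4, an inhibitor of mTORC1, stood at -0.09 ± 0.062 (-0.24 to 0.06).

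Among 8 amino acid and one-carbon genes of the branch, 3 were higher in siGiver cells in PBS and none lower, which is 37.5% called. This is near the share over all genes called in either direction, and above the share called higher. Psat1, the aminotransferase of serine synthesis, read 9.80 and 9.77 in siNTC and 10.39 and 10.45 in siGiver cells. That is a difference of 0.64 ± 0.045 (1.56-fold, adjusted p = 8.46e-05). Phgdh, which catalyses the first step of serine synthesis, was higher by 0.28 ± 0.057 (adjusted p = 0.00717). Slc3a2, the heavy chain of amino acid exchangers, read 10.57 and 10.56 against 10.97 and 11.04, a difference of 0.44 ± 0.045 (adjusted p = 0.000344). Its partner light chain gene Slc7a5 stood at 0.13 ± 0.052 and did not pass (adjusted p = 0.0828). Asns, the asparagine synthetase gene, was at 0.13 ± 0.046 (adjusted p = 0.061). The mitochondrial folate enzyme genes Shmt2 (0.03) and Mthfd2 (0.02) and the mitochondrial tRNA synthetase gene Nars2 (0.01) had the smallest differences of the 8.

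Eif2ak3, the Perk gene, went the other way in PBS. It read 8.49 and 8.27 on siNTC arrays and 7.95 and 8.07 on siGiver arrays, a difference of -0.37 ± 0.081 (1.29-fold lower, adjusted p = 0.0101). The call was lost without siGiver PBS replicate 1 (-0.31, adjusted p = 0.0635). Atf6 (0.06 ± 0.055) and Xbp1 (-0.07 ± 0.048) did not pass.

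Of the 9 chaperones and folding factors, 3 were higher and none lower in PBS, which is 33.3% called. That is close to the share over all genes called in either direction, and above the share called higher. The 3 were Hyou1, an ER relative of Hsp70 that acts as nucleotide exchange factor, Canx, the lectin chaperone calnexin, and Creld2, a disulfide isomerase. Hyou1 read 7.71 and 7.69 in siNTC and 8.16 and 8.14 in siGiver cells, a difference of 0.45 ± 0.048 (1.37-fold, adjusted p = 0.000404). Canx was higher by 0.29 ± 0.053 and Creld2 by 0.26 ± 0.051. The other 6, among them the protein disulfide isomerases Pdia4 and Pdia6 and the lectin chaperone gene Calr, ranged from -0.07 to 0.14. Canx and Creld2 carry the ER stress element in the stretches shown, as does Calr. For Calr the 95% interval of the difference was -0.15 to 0.05, and for Pdia6 -0.13 to 0.08.

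In ER-associated degradation, Edem1, which hands misfolded glycoproteins to the degradation machinery, was higher by 0.25 ± 0.047 (adjusted p = 0.00502). Sel1l, the scaffold of the Hrd1 ubiquitin ligase, was higher by 0.29 ± 0.052 (adjusted p = 0.00387), and Herpud1, a further part of that complex, stood at -0.10 ± 0.055. Of the 14 calls in PBS, 12 held under all 16 alternative analyses, and those of Ppp1r15a and Eif2ak3 did not.

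**Figure D2:**
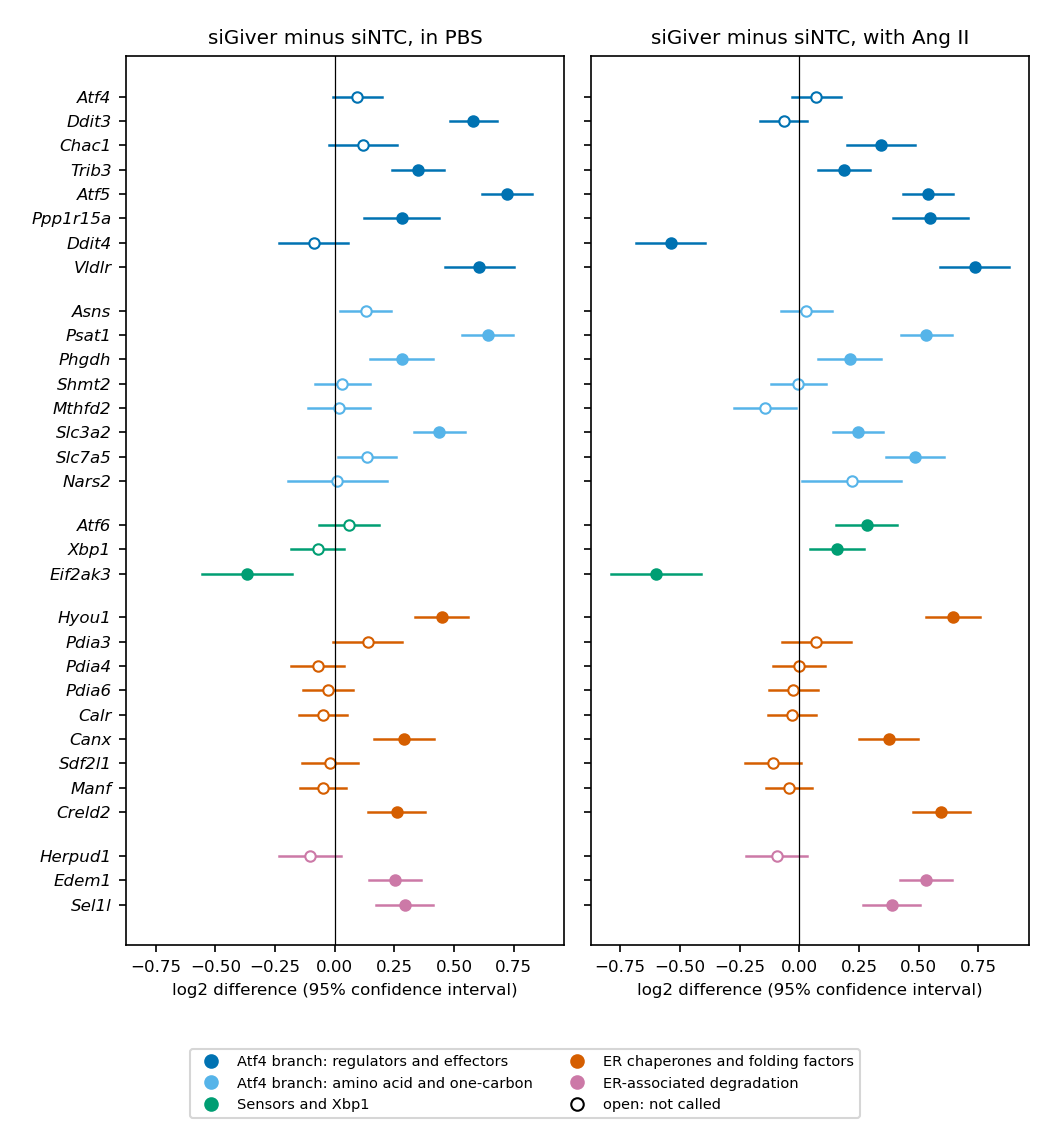
Log2 difference between siGiver and siNTC cells for each of the 31 genes, in PBS (left) and with Ang II (right), with 95% confidence intervals as bars, colour for role and filled points for adjusted p under 0.05. Filled points number 14 on the left and 18 on the right, and Eif2ak3 and Ddit4 are the filled points below 0 with Ang II.

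With Ang II present, 16 of the 31 genes were higher in siGiver than in siNTC cells and 2 were lower. Over all genes tested 44.3% were called here, 19.5% higher and 24.8% lower. Vldlr had the widest difference, with 11.52 and 11.46 on siNTC Ang II arrays against 12.25 and 12.19 on siGiver Ang II arrays. It was higher by 0.73 ± 0.062 (1.66-fold, adjusted p = 9.63e-05).

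Ppp1r15a read 8.79 and 8.75 against 9.28 and 9.37, and its difference of 0.55 ± 0.068 (adjusted p = 0.000531) was wider than in PBS, though that change was not past the threshold (interaction below). Atf5 read 10.18 and 10.26 against 10.75 and 10.77, a difference of 0.54 ± 0.046 (adjusted p = 9.60e-05). Chac1 read 8.70 and 8.72 against 9.002 and 9.11, a difference of 0.34 ± 0.061 (adjusted p = 0.00306). That the groups were apart follows from the choice of genes with printed array values.

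Ddit3 no longer differed past the threshold, with 10.16 and 10.15 in siNTC and 10.11 and 10.08 in siGiver cells, at -0.07 ± 0.042 (95% interval -0.16 to 0.03). Ddit4 was lower in siGiver cells, at 8.54 and 8.57 against 7.97 and 8.06, a difference of -0.54 ± 0.062 (1.45-fold, adjusted p = 0.000373). Trib3 was higher by 0.19 ± 0.046, a call lost without siNTC Ang II replicate 2 or either siGiver Ang II array (0.15 to 0.19, adjusted p of 0.0524 to 0.082). Atf4 again did not pass, at 0.07 ± 0.044.

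Of the amino acid genes, Psat1 read 9.80 and 9.83 in siNTC against 10.36 and 10.33 in siGiver cells with Ang II. Its difference of 0.53 ± 0.045 (adjusted p = 0.000102) was close to that in PBS. Slc7a5 read 8.64 and 8.66 against 9.08 and 9.19 and was higher by 0.48 ± 0.052 (1.40-fold, adjusted p = 0.00027). Slc3a2 was higher by 0.25 ± 0.045 (10.77 and 10.82 against 11.04 on both siGiver arrays) and Phgdh by 0.21 ± 0.057. The Phgdh call was lost without siNTC Ang II replicate 1 or either siGiver Ang II array (0.16 to 0.22, adjusted p of 0.0645 to 0.109).

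The 3 measured genes of the sensor group all differed with Ang II, in both directions. Eif2ak3 read 8.36 and 8.27 in siNTC and 7.70 and 7.72 in siGiver cells, a difference of -0.60 ± 0.081 (1.52-fold lower, adjusted p = 0.000797). Atf6 was higher by 0.28 ± 0.055 (adjusted p = 0.00435), although its dimmer probe set gave 0.06 and the mean of both did not pass (0.17, adjusted p = 0.1635). Xbp1 was higher by 0.16 ± 0.048, a call lost without any 1 array of the siNTC Ang II and siGiver Ang II groups (0.14 to 0.17, adjusted p of 0.0785 to 0.128).

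The same 3 chaperone genes passed as in PBS. Hyou1 read 7.62 and 7.61 against 8.21 and 8.30, a difference of 0.64 ± 0.048 (1.56-fold, adjusted p = 5.48e-05). Creld2 read 8.49 and 8.56 against 9.09 and 9.16, a difference of 0.59 ± 0.051 (1.51-fold, adjusted p = 0.000102). Canx was higher by 0.37 ± 0.053, with 0.20 and 0.30 from its other 2 probe sets. The remaining 6 lay between -0.11 and 0.07 on the probe sets used. Pdia3, a disulfide isomerase of glycoproteins, was at 0.07 there, but its dimmer probe set gave 0.32 and the mean of both passed (0.20, adjusted p = 0.0385). Edem1 read 9.76 and 9.78 against 10.30 on both siGiver arrays, a difference of 0.53 ± 0.047 (1.45-fold, adjusted p = 0.000112), and Sel1l was higher by 0.39 ± 0.052. The other 2 Edem1 probe sets gave 0.56 and 0.42, and the dimmer Hyou1 probe set 0.42. Of the 18 calls with Ang II, 14 held under all 16 alternatives.

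In control cells, Ang II changed 8 of the 31 genes, and all 8 belong to the Atf4 branch. Of the 16 genes of that branch 6 rose and 2 fell, with a median of 0.17 log2 against 0.0058 over all genes, where 6.14% were called, 3.96% higher and 2.17% lower. By limma's test none of the 9 chaperones passed, though 5 had an unadjusted p under 0.05, in both directions. Creld2 (-0.21), Pdia4 (-0.16) and Canx (-0.14) stood lower, and Manf (0.16) and Sdf2l1 (0.17) higher. The other Canx probe sets gave 0.16 and -0.11. The 3 degradation genes and the 3 sensor genes did not pass either, with 1 of each, Edem1 (-0.12) and Xbp1 (0.13), at an unadjusted p under 0.05. The other Edem1 probe sets gave -0.02 and 0.41. The share of all genes at that unadjusted level was not counted, so whether these counts exceed it is not known.

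Ddit3 rose from 9.60 and 9.63 with PBS to 10.16 and 10.15 with Ang II, by 0.55 ± 0.042 (1.46-fold, adjusted p = 0.000454). Chac1 went from 8.37 and 8.35 to 8.70 and 8.72, by 0.35 ± 0.061 (adjusted p = 0.017). In both genes the 2 arrays of each group lay close together. Atf4 rose by 0.20 ± 0.044, Slc3a2 by 0.23 ± 0.045, Mthfd2 by 0.25 ± 0.056 and Trib3 by 0.23 ± 0.046, with adjusted p of 0.0281 to 0.0443.

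Nars2 fell, from 5.84 and 5.54 to 5.16 and 5.20, by 0.51 ± 0.089 on the log2 scale (adjusted p = 0.0171). It is the dimmest of the 31 and lies nearest to the filter value. Vldlr fell by 0.30 ± 0.062 (adjusted p = 0.0356), from 11.86 and 11.71 to 11.52 and 11.46. Just outside the threshold lay Ppp1r15a (0.29 ± 0.068, adjusted p = 0.0507), Ddit4 (0.26 ± 0.062, adjusted p = 0.0544) and Creld2 (-0.21 ± 0.051, adjusted p = 0.055).

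Only the Ddit3 call held under all 16 alternatives in this comparison. The number of members called higher was 1 without siNTC PBS replicate 1 or without either siNTC Ang II array, 2 without either siGiver Ang II array, and 3 without siNTC PBS replicate 2 or either siGiver PBS array. The number called lower was 0 without either siNTC Ang II array, 2 without siNTC PBS replicate 2 and 1 without any other array.

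In siGiver cells Ang II also changed 8 of the 31 genes, 6 higher and 2 lower, and Atf4 and Chac1 were the members called in both arms. Over all genes 16.3% were called, 9.11% higher and 7.17% lower. A call in 1 arm alone is not a difference between arms. Manf stood at 0.16 in both arms. Ppp1r15a in siNTC cells (adjusted p = 0.0507) and Nars2 in siGiver cells (-0.30, adjusted p = 0.0563) narrowly missed the threshold of limma's test. The interaction test below was passed by 4 of the 31 genes. The share of all genes called in both arms was not counted. In siGiver cells Chac1 rose from 8.55 and 8.40 to 9.002 and 9.11, by 0.58 ± 0.061 (1.49-fold, adjusted p = 0.000894). Ppp1r15a rose from 8.78 and 8.75 to 9.28 and 9.37, by 0.56 ± 0.068 (1.47-fold, adjusted p = 0.00174). Slc7a5 rose from 8.71 and 8.77 to 9.08 and 9.19, by 0.39 ± 0.052 (adjusted p = 0.0025), and Xbp1 by 0.36 ± 0.048 (adjusted p = 0.00268). These 4 calls held under all 16 alternatives.

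The other 4 calls did not. Atf4 rose by 0.18 ± 0.044 and Manf, a secreted ER stress protein, by 0.16 ± 0.042, while Atf5 fell by 0.18 ± 0.046 and Eif2ak3 by 0.30 ± 0.081, on the log2 scale. Atf4 and Atf5 lost their call without any 1 of the 4 siGiver arrays, at 0.17 to 0.19 and -0.19 to -0.18. Manf (0.15 to 0.18) and Eif2ak3 (-0.36 to -0.24) lost it without any 1 of these or of the siNTC Ang II arrays. With these calls the number of members called lower was 0 without any 1 siGiver array, 1 without either siNTC Ang II array and 3 without either siNTC PBS array.

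The Ang II effect differed between the arms for 4 of the 31 genes by the interaction test, which takes the siNTC effect from the siGiver effect. Over all genes 6.21% passed it, 3.35% higher and 2.87% lower. Ddit3 differed by -0.65 ± 0.059 (adjusted p = 0.00132), since it rose in siNTC cells and stood at -0.10 ± 0.042 in siGiver cells. In siGiver PBS cells Ddit3 was already at 10.20 and 10.19, beside 10.16 and 10.15 in siNTC cells with Ang II, so that the siNTC PBS arrays alone were low. Ddit4 differed by -0.45 ± 0.0875 (adjusted p = 0.0263). It read 8.22 and 8.37 in siNTC PBS, 8.54 and 8.57 in siNTC Ang II, 8.20 and 8.21 in siGiver PBS and 7.97 and 8.06 in siGiver Ang II arrays.

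Slc7a5 had a larger Ang II effect in siGiver cells, by 0.35 ± 0.073 (adjusted p = 0.0344). So did Creld2, by 0.34 ± 0.072 (adjusted p = 0.0374), with 8.71 and 8.76 then 8.49 and 8.56 in siNTC arrays and 9.02 and 8.97 then 9.09 and 9.16 in siGiver arrays. Neither Creld2 effect passed within its own arm. The Ddit3 interaction held under all 15 alternatives that apply. That of Creld2 was lost without any 1 of the 8 arrays (0.30 to 0.37, adjusted p of 0.0697 to 0.118), and that of Slc7a5 without any 1 array but siGiver Ang II replicate 1 (0.30 to 0.38, adjusted p of 0.0626 to 0.111). The Ddit4 call was lost without any 1 array but siNTC PBS replicate 2 and siGiver Ang II replicate 2 (-0.47 to -0.38, adjusted p of 0.0674 to 0.0894).

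Edem1 was next, at 0.28 ± 0.066 with an adjusted p of 0.0505, followed by Xbp1 (0.23 ± 0.068, adjusted p = 0.0968). For Chac1 and Ppp1r15a, which rose most in siGiver cells, the arms differed by 0.22 ± 0.087 and 0.27 ± 0.096 and did not pass (adjusted p = 0.178 and 0.152).

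**Figure D3:**
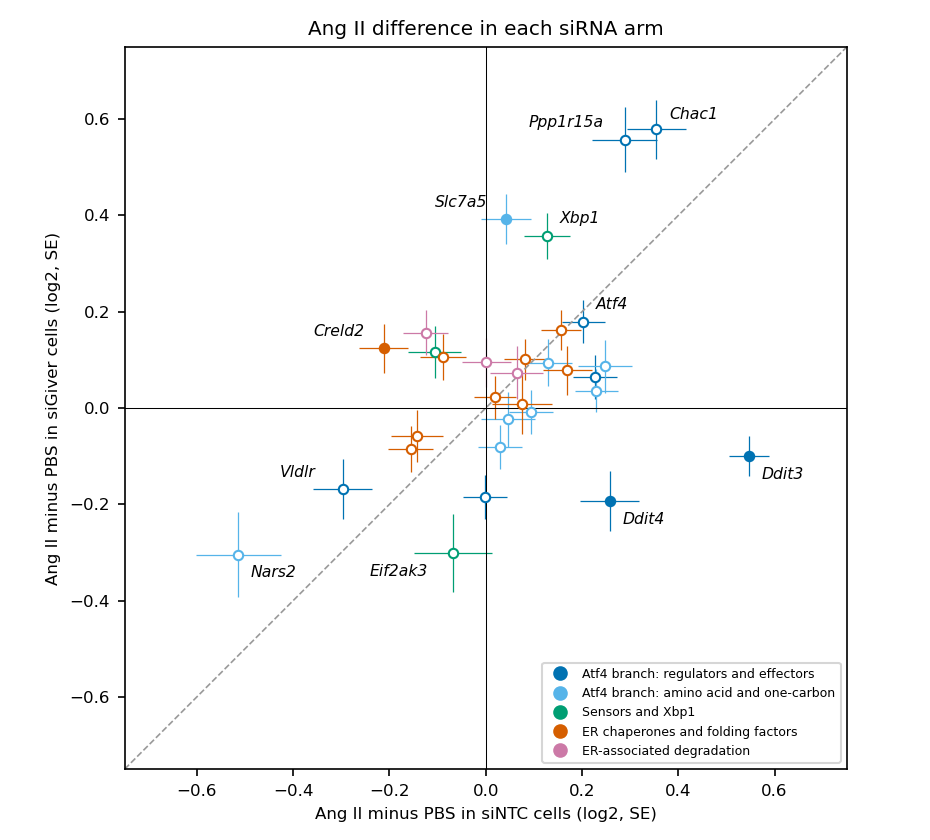
Ang II minus PBS in siNTC cells (horizontal) against siGiver cells (vertical), both log2 with SE bars, for the 31 genes coloured by role, with a dashed line of equal effects and filled points for genes past the interaction test. Ddit3 and Ddit4 lie below the line and Slc7a5 and Creld2 above it, while Atf4 lies near it at 0.20 and 0.18.

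Set side by side, the Atf4 branch had a higher median difference than the ER chaperones in 3 of the 4 group comparisons. In siGiver against siNTC cells in PBS the branch had 8 of 16 genes higher and a median of 0.21 log2, and the chaperones 3 of 9 higher and a median of -0.02. With Ang II the branch had 9 higher, 1 lower and a median of 0.22, and the chaperones 3 higher and a median of -0.0013. Over all genes 35.0% were called in PBS, with a median of -0.0047, and 44.3% with Ang II, with a median of -0.0259. The share of chaperones called in either direction was 33.33% in both, below those over all genes. All these chaperone calls were higher, while over all genes 1817 of 11377 were called higher in PBS and 19.5% with Ang II. For higher calls alone the chaperone share thus lay above that over all genes. With the mean of probe sets Pdia3 also passed limma's test with Ang II (0.20, adjusted p = 0.0385). The branch lay above the shares over all genes called in either direction in both, at 62.5% with Ang II. For Ang II in siNTC cells the medians were 0.17 and 0.02. For Ang II in siGiver cells the order was the other way, 0.01 for the branch and 0.08 for the chaperones. Here 4 of 16 branch genes were higher and 1 lower (31.25% called), and 1 of 9 chaperones higher (11.11%). Over all genes 16.3% were called here. The median over all genes was 0.0058 for Ang II in siNTC cells and -0.0275 in siGiver cells. These comparisons share control arrays in pairs, and members are not replicates and were chosen with earlier results of these data known. For these reasons no test was made between the gene groups.

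Within the branch, relative to each gene's siNTC PBS mean, the median of the 8 regulators and effectors was 0.25 on both siNTC Ang II arrays, 0.31 and 0.32 on siGiver PBS arrays and 0.48 and 0.44 on siGiver Ang II arrays. For the 8 amino acid and one-carbon genes it was 0.06 and 0.10, then 0.13 and 0.14, then 0.20 on both. The 9 chaperones gave 0.04 and -0.0032, then -0.02 and -0.0091, then 0.10 and 0.07. On these scales the regulators and effectors had the larger medians of the branch, whereas for Ang II within siGiver cells their median was -0.02 and that of the amino acid genes 0.01.

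**Figure D4:**
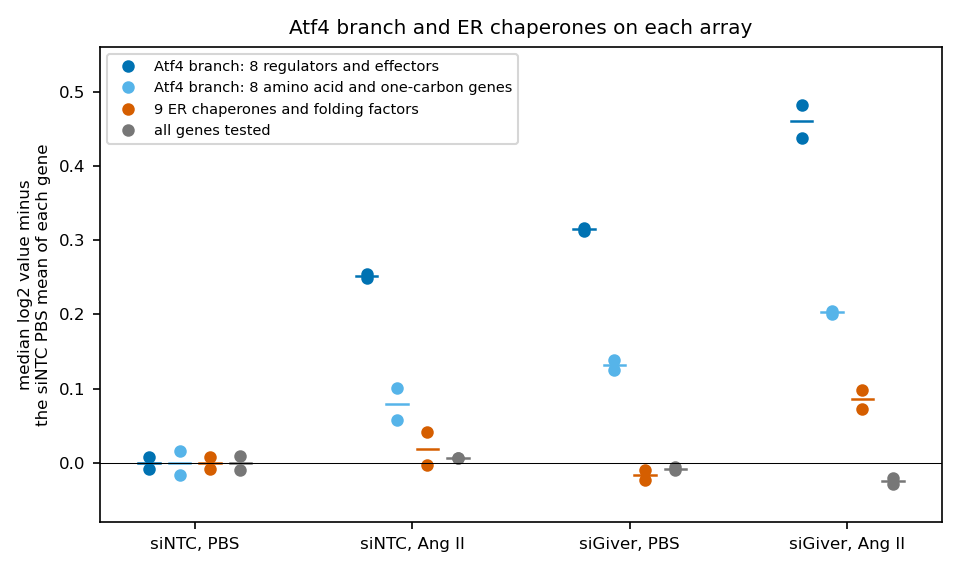
Median over genes of the log2 value minus that gene's siNTC PBS mean (vertical axis), for each array in the 4 groups (horizontal axis), with points for arrays and short lines for group means. The 8 regulators and effectors of the Atf4 branch reach 0.44 to 0.48 in siGiver Ang II arrays, and the 9 chaperones stay between -0.02 and 0.10 on all arrays.

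Further genes of the pathway were taken from 2 lists. On the Atf4 and eIF2alpha side 39 of 41 genes were tested, among them tRNA synthetases, amino acid transporters and the other eIF2alpha kinases. In siGiver against siNTC cells in PBS 9 were higher and 9 lower (median -0.0083), and with Ang II 14 higher and 9 lower (median 0.07). That is 46.15% and 58.97% called, against 35.0% and 44.3% over all genes. With Ang II the 14 became 8 without siNTC Ang II replicate 1, or 9 if siGiver Ang II replicate 2 was left out, and the 9 lower became 5 without siGiver Ang II replicate 1. The translation repressor gene Eif4ebp1 was higher by 0.90 ± 0.055 in PBS and 0.82 ± 0.055 with Ang II. The cationic amino acid transporter gene Slc7a1 was higher by 0.85 ± 0.057 and 1.47 ± 0.057, and the stress cytokine gene Gdf15 lower by -0.61 ± 0.067 and -1.29 ± 0.067.

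Ang II raised 4 of these 39 genes in siNTC cells and lowered none. Atf3, an Atf4-induced repressor that many growth signals also induce, rose by 0.54 ± 0.058, Gdf15 by 0.42 ± 0.067 Cebpb by 0.32 ± 0.049 and Slc7a1 by 0.31 ± 0.057; without siNTC PBS replicate 1 or siNTC Ang II replicate 1 the number was 1. These 4 are 10.26% of the list, against 6.14% called over all genes. In siGiver cells 10 rose and 3 fell (33.33%, against 16.3% over all genes). Those with the smallest p in limma's test were Atf3 (0.94 ± 0.058), Slc7a1 (0.93 ± 0.057) and Cebpb (0.41 ± 0.049). The 10 became 5 without siGiver Ang II replicate 2, or 6 if siGiver PBS replicate 1 was left out, and the 3 became 0 without either of these and 1 without either other siGiver array. The interaction was passed upward by 2 of the 39, Slc7a1 (0.62 ± 0.081) and Atf3 (0.40 ± 0.082). It was passed downward by 4, namely Gdf15 (-0.68 ± 0.094), the stress-induced metabolic regulator gene Sesn2 (-0.35 ± 0.0575), Nupr1 (-0.31 ± 0.061) and the heme-regulated eIF2alpha kinase gene Eif2ak1 (-0.27 ± 0.062). Slc7a1 in siNTC cells, Atf3, Nupr1 and Eif2ak1 were named here after their values were seen. The 2 became 1 without siNTC PBS replicate 2 or any 1 Ang II array, and the 4 became 1 or 2 without any 1 of the 8 arrays. The Atf3 interaction was lost without any 1 array but siNTC PBS replicate 1 and siGiver PBS replicate 1 (0.34 to 0.42). In siNTC cells the Cebpb call was lost without siNTC PBS replicate 1 or siNTC Ang II replicate 1 (0.30 to 0.31). That of Gdf15 was lost without either of these or siNTC Ang II replicate 2 (0.34 to 0.43), and that of Slc7a1 without siNTC Ang II replicate 1 or any 1 array of the siNTC PBS group (0.25 to 0.35). The Sesn2 interaction was lost without any 1 array of the siNTC Ang II, siGiver PBS and siGiver Ang II groups (-0.35 to -0.34) and with the mean of its probe sets. In siGiver against siNTC cells Atf3 was lower in PBS, at -0.47 ± 0.058 (adjusted p = 0.0008). With Ang II it stood at -0.06 ± 0.058 and did not pass, so its larger rise began lower. Cebpb was lower in siGiver cells in both, at -0.30 ± 0.049 in PBS and -0.21 ± 0.049 with Ang II. The latter call was lost without siNTC or siGiver Ang II replicate 1 (-0.18 to -0.17). These siRNA differences were given after their values were seen.

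On the Xbp1 and Atf6 side 38 of 40 genes were tested, chiefly chaperones, translocon and degradation genes. Here siGiver cells had 5 genes higher and 16 lower in PBS (median -0.07), and 7 higher and 16 lower with Ang II (median -0.08). That is 55.26% and 60.53% called, against 35.0% and 44.3% over all genes. The 16 lower became 10 in PBS without siNTC PBS replicate 1, and 10 with Ang II without siGiver Ang II replicate 1. Selenos, a membrane partner of the degradation complex, was lower by -0.50 ± 0.048 and -0.54 ± 0.048, and Creb3, a membrane-bound transcription factor, by -0.39 ± 0.048 and -0.49 ± 0.048. Ero1a, the oxidase that recharges disulfide isomerases, was lower by -0.55 ± 0.057 in PBS and -0.37 ± 0.057 with Ang II. Ssr1, a subunit near the translocon, was higher by 0.34 ± 0.044 in PBS and 0.44 ± 0.044 with Ang II.

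Ang II lowered 1 of these 38 in siNTC cells, Mbtps2, the protease gene needed to release Atf6, by -0.22 ± 0.047, a call lost without any 1 of the 8 arrays (-0.26 to -0.18). In siGiver cells Mbtps2 fell by 0.27 ± 0.047 on the log2 scale, a call lost without siGiver Ang II replicate 2 (-0.25). Hspa5, the gene of the main ER chaperone BiP, rose there by 0.44 ± 0.050 (adjusted p = 0.00123) beside 0.12 ± 0.050 in siNTC cells, where it did not pass. Its interaction of 0.33 ± 0.071 (adjusted p = 0.0393) was lost without any 1 of the 8 arrays (0.28 to 0.37, adjusted p of 0.0533 to 0.125).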

How the data were processed

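Total RNA (5 ug per array) was labelled by Affymetrix's one-cycle protocol, per the labels. The deposited log2 values, 1 per probe set and array, were made by the authors with RMA and Partek, per the submitters' processing notes (versions: not given in the sources used here). Since RMA quantile-normalizes arrays, a probe set's level can be set against other arrays but not against other genes. Depth does not apply, and 2 arrays per group limit the precision. The labels do not say whether arrays came from separate cultures, and the p-values thus measure array-to-array spread alone, perhaps of technical origin. Replicates correlated at 0.998.

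Probe sets (31099, of which 57 controls) took gene names from the platform annotation held by GEO, with symbols updated by gene identifier. Those below the 30th percentile of the mean (4.81 log2) were left out, then the brightest per gene was kept. The 8 arrays entered one linear model of 4 group means (limma 3.58.1, R 4.3.3, 4 residual degrees of freedom), with Benjamini-Hochberg adjustment over 11377 genes, and the fit was tested on simulated data. SE are from this fit. The members and lists were chosen with earlier results of these data known. Array values are given for the 14 called members with the largest differences and non-overlapping arrays, and of the 2 further lists up to 3 called genes with the smallest p per list and comparison. Alternatives were cyclic loess, the mean of probe sets, a filter at percentile 50 or none, subtracted array medians, trended robust moderation, a replicate block, the compared groups alone, leaving out each array, and the branch without Nars2.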

Additional observations from a re-analysis of the deposited data

Results flagged for a closer look

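The Ang II effect of 4 members differed between siGiver and siNTC cells by the interaction test in limma. The differences, siGiver minus siNTC, were -0.65 for Ddit3, -0.45 for Ddit4, 0.34 for Creld2 and 0.35 for Slc7a5, on the log2 scale with 2 arrays per group. Groups of 2 arrays are too small for a search for outlying arrays.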

How the results depend on the processing

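No member reversed a called direction under any alternative. Of 52 member calls, 32 held under every alternative and 20 did not. Counts of members called moved most for Ang II in siNTC cells: 2 higher and 1 lower without the filter and with the compared groups alone, 10 and 5 with trended robust moderation, and 1 to 3 and 0 to 2 leaving out 1 array. For Ang II in siGiver cells the number lower was 0 without the filter and with array medians subtracted, 4 with trended moderation, 1 with the replicate block, and 0 to 3 leaving out 1 array. In siGiver against siNTC cells in PBS it was 0 to 1 leaving out 1 array. For the interaction, 0 higher and 1 lower passed without the filter, 6 and 4 with trended moderation, 1 higher with the replicate block, and 0 to 1 and 1 to 2 leaving out 1 array. The replicate numbers share no origin in the labels, and the deviations of same-numbered arrays correlated at -0.092 to 0.066. No sign of pairing by number was thus seen, though such correlations cannot exclude it.

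Without Nars2, which the 50th percentile filter also removes, the Atf4 branch median was 0.20 (0.18 above the chaperones) for Ang II in siNTC cells, 0.0359 for Ang II in siGiver cells, and 0.28 (0.30 above) for siGiver against siNTC in PBS. With array medians subtracted, the branch and chaperone medians were 0.0405 and 0.10 for Ang II in siGiver cells, and the branch median 0.23 for siGiver against siNTC with Ang II. With cyclic loess, the branch and chaperone medians were 0.24 and 0.0037 in PBS, and the chaperone median 0.0242 with Ang II. With the mean of probe sets, the chaperone median was -0.0033 for Ang II in siNTC cells and 0.0542 for the interaction, where the branch lay -0.14 from it. The cause was not tested. Leaving out 1 array gave these ranges of the branch, the chaperones and their difference. They were 0.13 to 0.20, -0.0031 to 0.0421 and 0.11 to 0.19 for Ang II in siNTC cells, and 0.18 to 0.25, -0.0238 to 0.0312 and 0.20 to 0.26 for siGiver against siNTC in PBS. With Ang II they were 0.21 to 0.25, -0.02 to 0.0025 and 0.21 to 0.26, and for the interaction -0.12 to -0.0447, 0.0193 to 0.0473 and -0.14 to -0.064. Over all genes the Ang II calls in siNTC cells ranged from 176 to 852 higher and from 50 to 644 lower, those in siGiver cells from 549 to 1467 and from 317 to 1335 (lowest without siGiver Ang II replicate 2), and the interaction calls from 199 to 805 and from 156 to 685.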
